A study of Rattus norvegicus with 4 samples.

Results

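The liver of a rat that received cells labelled ASCs-miR27b after partial hepatectomy was set against the liver of a rat that received saline after the same operation. This is a comparison of 2 of the 4 RNA libraries of the study, 1 library on each side, and it was taken gene by gene as the deposited log2 value of the miR-27b library minus that of the saline library. The first group is partial hepatectomy with an intravenous dose of ASCs carrying the label miR27b, called here the miR-27b liver. The second is partial hepatectomy with intravenous saline, called the saline liver. The 2 libraries outside the comparison, a liver given cells labelled ASCs-siRNC after hepatectomy and the liver of a naive control, are quoted beside them. All 4 were livers of Lewis rats of allotype RT1L, and poly(A) RNA was sequenced on an Illumina MiSeq. The labels do not spell out ASCs, read here as adipose-derived stem cells, or siRNC. Neither the interval between surgery and collection nor the hour of collection is given in the sources used here.

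After part of the liver is removed, the cells that remain enter the cell cycle and regrow the lost mass while they go on making plasma proteins, lipids and bile. Cytokines such as IL-6 and TNF prime the hepatocytes, growth factors such as HGF drive them into division, and TGF beta restrains them. Adipose-derived stem cells are mesenchymal cells known for secreted factors that act on inflammation and repair, and miR-27b is a microRNA known for roles in lipid metabolism and adipocyte differentiation. A microRNA finds its target RNAs mainly through its seed, the stretch from base 2 to base 8 at its 5′ end.

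The mature rat sequences are given because the cells were labelled with this microRNA. They are from RefSeq (build GRCr8), written 5′ to 3′ with the seed in capitals. The main arm, rno-miR-27b-3p, lies at chr17:1819163-1819183 on the minus strand, the other arm, rno-miR-27b-5p, at chr17:1819202-1819225 on the minus strand, and the paralog rno-miR-27a-3p at chr19:40859614-40859634 on the minus strand. The 3p arms of the paralogs share their seed, and the 5p arm has another.
rno-miR-27b-3p: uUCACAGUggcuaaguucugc
rno-miR-27a-3p: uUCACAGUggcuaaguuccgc
rno-miR-27b-5p: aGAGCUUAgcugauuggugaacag
The microRNA itself was not measured, since the libraries were made from poly(A) RNA and the table lists genes.

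The deposited values are log2 values relative to a baseline of each gene's own, so they show how a gene differs between livers and not how abundant it is. Of 31457 genes, 12874 had a value other than 0, and 9795 passed a filter on low levels that rests on reads recovered from the values or on an estimated level class. An entry of 0 in all 4 livers is not a level, because the ribosomal protein genes Rpl8 and Rps14 and the chaperone gene Hspa8, which every cell uses, are listed that way too. The size factor was 0.956 in the miR-27b library, 1.039 in the saline library, 1.005 in the siRNC library and 0.977 in the naive library. With 1 animal a side there is no replicate error, no test and no p-value, and a gene is called higher or lower where the livers were at least 2-fold apart. The hepatocyte genes Alb, Ttr, Apoa1, Serpina1 and Cps1 were all in the highest level class, of at least 256 normalized reads, and lay between -0.17 and 0.33 on the log2 scale. In RNA of whole tissue, more cells of a type and more RNA per cell cannot be told apart.

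Among 9795 genes, 242 (2.47%) exceeded the saline value by 2-fold or more in the miR-27b liver, and 205 (2.09%) fell short of it by as much, 447 (4.56%) in either direction. The median difference was 0.00, the quartiles were -0.23 and 0.24, and 50% were above 0. Differences ran from -4.91 for Hamp to 3.65 for Cxcl1, and 4-fold was passed by 23 genes upward and by 19 downward. A counting interval could be set for the 1496 genes with recovered reads. Of the 138 of these that were 2-fold apart, 99 had a 95% interval that left out 0, and for 12 the whole interval lay past 2-fold, 8 of them higher and 4 lower. These are exact conditional binomial intervals of counting error alone, because PCR copies of a molecule are counted again and each group is 1 rat. Among the 8 higher genes, Thbs1 was at the floor of 1 normalized read in the saline liver. Its interval takes that as 0 reads, although 1 saline read would be listed the same way. Its place among the 8 rests on that reading. When 5 normalized reads were added to every level, 216 of the 447 calls were left. For genes without recovered reads the baseline was set at the lower bound of their class, 16 or 256 normalized reads. Their values with 5 reads added rest on that assumed level.

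**Figure D1:**
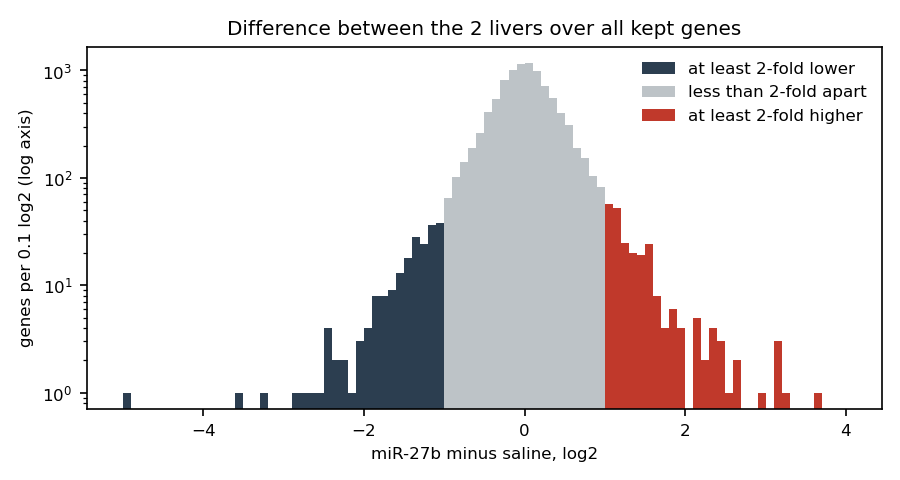
Histogram of the log2 difference, miR-27b minus saline, over 9795 kept genes (x axis, log2; y axis, genes per bin on a log scale). Most genes lie within 2-fold, with 242 past it on the higher and 205 on the lower side, and the lowest value, -4.91, is Hamp.

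The neutrophil chemoattractant Cxcl1 (gene ID 81503) had the largest upward difference. It had 195.8 reads in the miR-27b liver, against 17 in the saline liver, 2 in the siRNC liver and 1 in the naive liver. The miR-27b liver was far above the other 3, among which the saline liver was highest. The log2 difference from saline was 3.65 (95% counting interval 2.93 to 4.46). Lcn2 (170496), which encodes the iron-siderophore binding acute phase protein lipocalin 2, had 594.7 reads in the miR-27b liver, against 71 in the saline, 34 in the siRNC and 14 in the naive liver. Its log2 difference was 3.19 (2.83 to 3.56), and the order of the 4 livers was the same as for Cxcl1. Il1rn (60582), the antagonist of the IL-1 receptor, had 207.5 reads in the miR-27b liver, against 70.4 in the saline, 39 in the siRNC and 40.6 in the naive liver, a log2 difference of 1.68 (1.29 to 2.10).

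The Cxcl1 promoter is shown because it holds matches to the kB consensus, the kind of sequence that NF-kB binds (capitals). The window runs from 250 bases before the start site to 50 after it, at chr14:17479272-17479571 on the minus strand (RefSeq, GRCr8), and the capitals are 2 overlapping matches, 1 on each strand, from 84 to 74 bases before the start.
Cxcl1: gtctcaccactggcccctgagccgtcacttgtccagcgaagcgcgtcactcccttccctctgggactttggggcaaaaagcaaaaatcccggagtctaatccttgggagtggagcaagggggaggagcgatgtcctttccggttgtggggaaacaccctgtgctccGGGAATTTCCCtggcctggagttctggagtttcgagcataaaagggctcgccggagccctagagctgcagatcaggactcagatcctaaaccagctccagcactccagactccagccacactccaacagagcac
The consensus was searched on both strands, and 7.51% of 33469 rat promoters of this length hold it. Of 215 promoter entries of genes 2-fold higher, 19 (8.84%) hold it, a share close to the 9.44% of the 8267 entries of kept genes. Some genes have several entries. Those of Lcn2 and Nfkbiz are among the 19. Nfkbiz, an inducible regulator of NF-kB target genes, was at 2.07 in the miR-27b, -0.28 in the saline, 1.01 in the siRNC and -0.92 in the naive liver, a difference of 2.35. A match in these letters is a description and not evidence of binding.

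Over the list of cytokines and NF-kB targets, 3 of 13 kept genes were at least 2-fold higher, against 2.47% of all kept genes. None was lower, 10 were above 0, and the median was 0.11 against 0.00 over all kept genes. The third was Il1a, at 1.12. Il1b was at 0.17, Icam1 at 0.28 and Nfkb1 at -0.04, so the list as a whole lay close to the rest of the genes while 3 members stood far out. Il6 was listed at 0 in all 4 livers, which gives no level. In IL-6 and STAT3 signalling, with 14 kept genes, 2 were higher, against 2.47% of all kept genes, 12 were above 0 and the median was 0.46. The STAT3-induced kinase Pim1 was the second of them, with 29.5 reads in the miR-27b liver and 14 in the saline liver, a difference of 1.20 (0.26 to 2.25). The feedback inhibitor Socs3 was at 0.66 and Stat3 itself at 0.36, both short of 2-fold.

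Of 22 positive acute phase proteins, which the liver secretes in inflammation, 21 were above 0 and 1 was at least 2-fold lower, with a median of 0.53. At least 2-fold higher were 5, against 2.47% of all kept genes. Beside Lcn2 these were the protease inhibitor A2m (1.84), the kininogens Kng1l1 (1.83) and Kng1 (1.59), and the carrier protein Orm1 (1.29). Kng1 and Kng1l1 are close copies whose reads the counting may have split between them. The Orm1 value was 1.16 in the miR-27b, -0.13 in the saline, 0.00 in the siRNC and -2.08 in the naive liver. For 21 of the 22 the siRNC liver lay nearer the saline than the miR-27b liver. The fibrinogen chains Fga (0.66), Fgg (0.53) and Fgb (0.50), haptoglobin Hp (0.49), C3 (0.51) and Crp (0.33) were all above 0 and under 2-fold. Complement genes showed the same kind of small displacement, with 26 of 28 above 0, a median of 0.39 and none past 2-fold, and of 26 coagulation genes 22 were above 0, with a median of 0.24 and none past 2-fold. The plasma carriers and other secreted hepatocyte proteins, by contrast, had 11 of 20 above 0 and a median of 0.05.

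Neutrophil markers were also higher in the miR-27b than in the saline liver. Unlike the reads of Cxcl1, Lcn2 and Il1rn, their summed reads were higher in the siRNC than in the saline liver. Of the 12 on the list 8 had a value, and all 8 were above 0, 6 of them past 2-fold. Over all genes at any level, 828 of 12874 were at least 2-fold higher. S100a9, a calcium-binding protein of neutrophils and monocytes, was at 1.32 in the miR-27b, -1.08 in the saline, 0.09 in the siRNC and -3.87 in the naive liver, a difference of 2.40. Summed over the 6 markers with recovered reads, the list had 68 reads in the miR-27b liver, against 21.7 in the saline, 39.1 in the siRNC and 8 in the naive liver. The collagenase Mmp8 had 13.6 reads in the miR-27b liver and was at the floor, listed as 0 reads, in the saline liver. With 3 reads assumed for the saline library, it was at least 4.91-fold higher. Only S100a9 and Ncf1, an oxidase subunit with 29 reads in the miR-27b and 16.2 in the saline liver, passed the filter on low levels, and the defining granule genes Mpo and Elane were listed at 0 in all 4 livers, so their levels are unknown. The part of neutrophils in the acute phase and cytokine values was not tested.

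Hamp (84604) went the other way from the rest of the acute phase list, and further than any other gene. It encodes hepcidin, the hepatic hormone that lowers plasma iron by degrading the iron exporter ferroportin. Its value was -4.16 in the miR-27b liver, against 0.75 in the saline, 0.00 in the siRNC and 1.25 in the naive liver. The miR-27b liver was alone at the bottom, and the other 3 lay within 1.25 of each other. The log2 difference from saline was -4.91. The reads behind it were not recovered. Only a class of at least 16 normalized reads at the baseline could be estimated, so its precision is unknown. With 5 reads added it was -2.44 for a baseline of 16 normalized reads, a level that was assumed and not measured. That level is slightly too low, since it would put the miR-27b liver just under the floor of 1 normalized read. The other genes of the iron list did not share this fall. Of 20 kept genes 1 was higher and 1, Hamp, lower, with a median of 0.12. The higher one was Tfrc, the transferrin receptor of dividing and iron-starved cells, at 1.05 in the miR-27b, -1.06 in the saline, 0.89 in the siRNC and 0.00 in the naive liver, a difference of 2.10. Tfr2 was at 0.25, the hepcidin suppressor Tmprss6 at 0.09, ferroportin Slc40a1 at -0.09 and the BMP target Id1 at -0.15. Bmp6, which encodes the ligand of the iron signal, was under the level filter, at -0.10. Hmox1, the haem-degrading enzyme, was at 0.87.

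The Hamp promoter is given because both of the routes known to induce hepcidin have their elements in it. It lies at chr1:95300222-95300521 on the minus strand (RefSeq, GRCr8). In capitals are, in order, GGCGCC, the core of the BMP-responsive element, and a match to TTCNNNGAA, the STAT element through which IL-6 acts.
Hamp: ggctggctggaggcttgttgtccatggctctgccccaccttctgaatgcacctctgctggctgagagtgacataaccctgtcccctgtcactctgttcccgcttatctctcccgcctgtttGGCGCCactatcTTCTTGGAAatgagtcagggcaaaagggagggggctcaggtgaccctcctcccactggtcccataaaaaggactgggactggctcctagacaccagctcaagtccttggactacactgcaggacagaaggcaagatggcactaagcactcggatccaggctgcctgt
The BMP core begins 129 bases and the STAT element 117 bases before the start site. Neither is rare, as 11% of the 33469 promoters hold GGCGCC and 8.87% hold TTCNNNGAA on either strand. Of the 8267 promoter entries of kept genes 21.2% hold GGCGCC and 7.15% hold TTCNNNGAA. Of the 149 entries of genes 2-fold lower the shares were 23.5% and 10.1%.

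The second large group was lipid synthesis. Of 24 kept genes of fatty acid synthesis, 7 were at least 2-fold higher, none was lower and 20 were above 0, with a median of 0.73, against 2.47% higher and a median of 0.00 over all kept genes. The fatty acid synthase Fasn (50671) was at 0.64 in the miR-27b, -1.28 in the saline, 0.85 in the siRNC and -0.29 in the naive liver, and differed from saline by 1.92. Its regulator Srebf1 (78968), the gene of SREBP-1c, was at 0.00 in the miR-27b, -1.45 in the saline, 0.72 in the siRNC and 0.67 in the naive liver, a difference of 1.45. In both the saline liver was the lowest of the 4. The others past 2-fold were the lipid droplet protein Pnpla3 (3.12), the lipogenic regulators Thrsp (1.33) and Mid1ip1 (1.18), the mitochondrial acetyl-CoA carboxylase Acacb (1.19) and the ATP citrate lyase Acly (1.05). Acacb was at 0.80, under 2-fold, with 5 reads added. Short of 2-fold were Scd1 (0.93), Acss2 (0.76) and Acaca (0.31), while Mlxipl, the gene of the carbohydrate sensor ChREBP, was at -0.19 and Me1 at -0.29.

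In all 7 genes past 2-fold the siRNC liver was also above the saline liver, and its value exceeded that of the miR-27b liver. Over the 24 genes the siRNC liver lay nearer the miR-27b liver for 18 and nearer the saline liver for 6. The median of siRNC minus saline was 0.59, and both differences share the saline library. The sterol genes had a smaller median in the miR-27b than in the siRNC liver. Of 25 genes of cholesterol synthesis and uptake, 2 were at least 2-fold higher, against 2.47% of all kept genes. Above 0 were 23, and the median was 0.31, while the median of siRNC minus saline was 0.92. Insig1, which retains the SREBP complex in the ER, was at 1.54 in the miR-27b, -0.45 in the saline, 0.86 in the siRNC and 0.00 in the naive liver, a difference of 1.98.

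Cyp7a1 (25428), the enzyme that sets the pace of bile acid synthesis, was at 0.12 in the miR-27b, -1.5 in the saline, 0.78 in the siRNC and -1.90 in the naive liver, a difference of 1.61. It was the only one of 16 bile acid genes past 2-fold, and the list had 8 genes above 0 and a median of -0.00. Nr0b2, the repressor of Cyp7a1 also known as SHP, had 261.4 reads in the miR-27b liver and 145.9 in the saline liver, a difference of 0.96 (0.66 to 1.26). Fatty acid oxidation stayed near the rest of the genes, with 17 of 26 above 0 and a median of 0.10, and so did oxidative phosphorylation, with 17 of 43 above 0, a median of -0.02 and none past 2-fold. The hormone gene Fgf21 was the 1 member of the oxidation list past 2-fold, at 1.30 (0.87 with 5 reads added), and Ppargc1a, the coactivator of mitochondrial biogenesis, was at 1.12 (0.99 with 5 reads added).

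**Figure D2:**
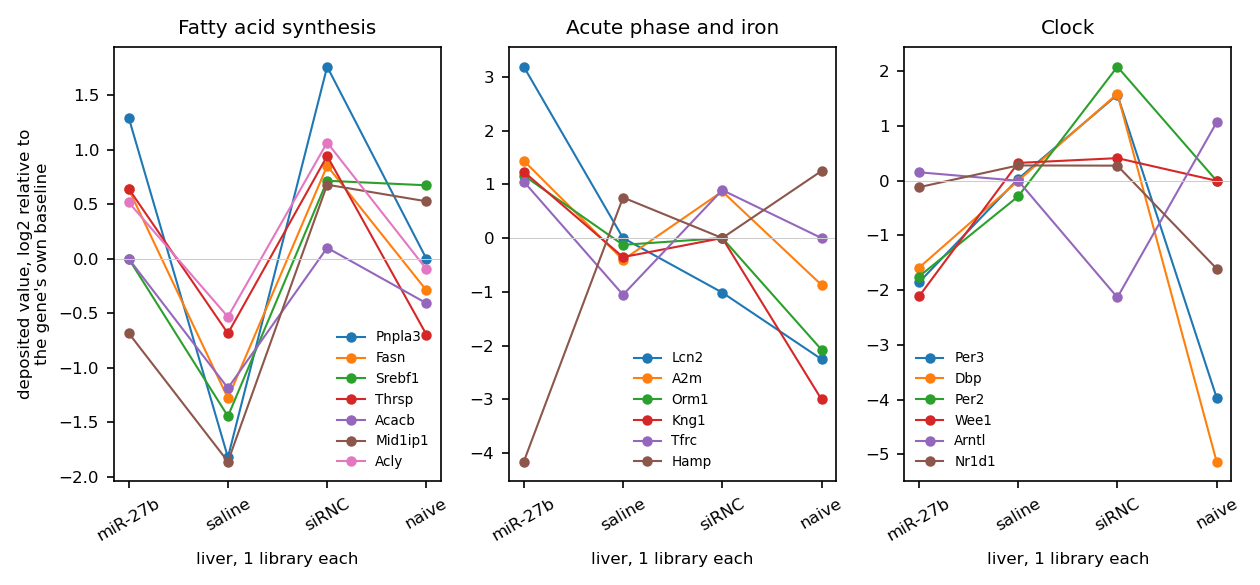
Deposited values of genes of fatty acid synthesis, of the acute phase and iron, and of the clock in the 4 livers (x axis, 1 library each; y axis, log2 relative to the gene's own baseline; lines join the values of 1 gene). The lipid genes are low in the saline liver, or next to lowest for Thrsp, Hamp drops to -4.16 in the miR-27b liver alone, and Per2, Per3 and Dbp peak in the siRNC liver.

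Genes of cell division were also higher in the miR-27b liver, at low read numbers. Of 10 kept genes of mitosis and the spindle, 4 were at least 2-fold higher, against 2.47% of all kept genes. None was 2-fold lower, 9 were above 0 and the median was 0.79. Top2a, the topoisomerase that untangles chromosomes, had 18.9 reads in the miR-27b liver, against 7 in the saline, 8 in the siRNC and 53 in the naive liver, a difference of 1.55 (0.25 to 3.05). Cdc20, which switches on the ubiquitin ligase of anaphase, had 17 reads in the miR-27b liver, against 5 in the saline, 8 in the siRNC and 41.6 in the naive liver, a difference of 1.89 (0.39 to 3.68). For both, the naive liver was the highest of the 4. The centromere protein Cenpf was at 2.99, and Cdk1 at 1.39 with an interval that reached 0 (-0.01 to 3.10). The proliferation marker Mki67 (291234) was at 0.13 in the miR-27b, -0.60 in the saline, -1.31 in the siRNC and 0.94 in the naive liver, a difference of 0.73. Without the level filter, 12 of 22 mitosis genes were at least 2-fold higher and the median was 1.22. Over all genes without the filter, 828 of 12874 were at least 2-fold higher. Kif20b, a kinesin of cell division chosen after its values were seen, had 43.8 reads in the miR-27b liver, against 10 in the saline, 11 in the siRNC and 35 in the naive liver, a difference of 2.25 (1.25 to 3.41).

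Genes of the steps before mitosis had smaller medians. Of 15 genes of DNA replication 13 were above 0, the median was 0.24, and 2 were at least 2-fold higher, against 2.47% of all kept genes. These were the primase subunit Prim1 (1.41, interval 0.53 to 2.34) and the polymerase Pole (1.13, interval 0.15 to 2.16). Pcna was at 0.03 and Mcm2 at 0.26. Ccnd1 (58919), the G1 cyclin that carries hepatocytes into the cycle, was lower: it was at -1.71 in the miR-27b, 0.06 in the saline, -1.22 in the siRNC and 0.79 in the naive liver, a difference of -1.76. Both livers given cells were below both livers without them. Ccnd1 was the 1 member past 2-fold of 10 kept G1 genes, whose median was 0.07, and Cdkn1a, the inhibitor p21, was at 0.49. All 23 kept genes of ribosome biogenesis were below 0, against 50% of all kept genes above 0, with a median of -0.51, and 1 was past 2-fold, the snoRNP protein Gar1 (-1.42). Nolc1 was at -0.73, Dkc1 at -0.62, Nop56 at -0.56 and nucleolin Ncl at -0.00. Against saline, the median of the list was -0.38 in the siRNC liver and -0.46 in the naive liver, with the saline library shared. The list thus lay below saline in every other liver, the naive one included. Growth factors and receptors had 2 of 17 higher, against 2.47% of all kept genes. They were Fgf21 and the binding protein Igfbp1 (1.05), with Hgf at 0.42, Met at 0.08 and Egfr at 0.26. Tgfb1 was at 0.35, the foetal protein Afp at 0.29 and Alb at 0.13.

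Immediate early genes, which respond within minutes to growth factors and stress, had 4 of 14 at least 2-fold higher, against 2.47% of all kept genes. None was 2-fold lower, 13 were above 0 and the median was 0.73. Against the same saline library, the median of the list was 0.31 in the siRNC and 0.78 in the naive liver. The saline liver was thus low for this list beside every other liver. Egr1 (24330), a transcription factor of this class, was at 1.47 in the miR-27b, -1.71 in the saline, -1.42 in the siRNC and 0.00 in the naive liver, a difference of 3.18. The antiproliferative gene Btg2 was at 1.44, the mRNA-destabilising protein Zfp36 at 1.33, which was 0.88 with 5 reads added, and Junb at 1.09, which was then 0.89. Jun was at 0.35 and Atf3 at 0.70. The Egr1 promoter is shown because it holds 2 CArG boxes, the element of serum response factor, which 1.64% of the promoters hold on either strand. It lies at chr18:26736828-26737127 on the plus strand (RefSeq, GRCr8), and the boxes begin 105 and 83 bases before the start site (capitals). Of the 215 promoter entries of genes 2-fold higher 4 (1.86%) hold the box, against 1.27% of the 8267 entries of kept genes. They belong to Egr1, Zfp36, Kif20b and Fhl1.
Egr1: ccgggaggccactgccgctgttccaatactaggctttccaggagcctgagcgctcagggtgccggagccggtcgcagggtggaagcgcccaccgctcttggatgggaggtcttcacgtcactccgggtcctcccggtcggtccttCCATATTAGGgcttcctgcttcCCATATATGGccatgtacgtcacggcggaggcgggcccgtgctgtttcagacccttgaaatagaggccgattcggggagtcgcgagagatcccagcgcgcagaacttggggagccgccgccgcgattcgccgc

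Some clock genes were among the lowest values. Of 17 kept clock genes 4 were at least 2-fold lower, against 2.09% of all kept genes, and none was higher. The median was -0.09 and 8 were above 0, with Per1 (0.69) and Bhlhe40 (0.61) the highest. The G2 kinase gene Wee1, a clock target, had 6.1 reads in the miR-27b liver, against 36 in the saline, 37 in the siRNC and 27 in the naive liver, a difference of -2.44 (-4.00 to -1.20). Dbp (24309), a transcription factor driven directly by the clock, was at -1.59 in the miR-27b, 0.00 in the saline, 1.59 in the siRNC and -5.13 in the naive liver. Per3 was at -1.86 in the miR-27b, 0.03 in the saline, 1.57 in the siRNC and -3.96 in the naive liver. Per2 had 4 reads in the miR-27b liver, against 12 in the saline, 60 in the siRNC and 13.8 in the naive liver, a difference of -1.46 whose interval included 0 (-3.55 to 0.26). Arntl, the gene of the clock activator BMAL1, was at 0.16 in the miR-27b, 0.00 in the saline, -2.13 in the siRNC and 1.07 in the naive liver, and the repressor Nr1d1 differed by -0.40. The 4 libraries thus differed in these genes in several ways at once, and with 1 rat a group the hour of collection and the treatment cannot be told apart.

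The Per2 promoter is shown because it holds a D-box, TTATGTAA, the element bound by DBP and its relatives. It lies at chr9:99496944-99497243 on the minus strand (RefSeq, GRCr8), with the D-box in capitals from 192 to 185 bases before the start.
Per2: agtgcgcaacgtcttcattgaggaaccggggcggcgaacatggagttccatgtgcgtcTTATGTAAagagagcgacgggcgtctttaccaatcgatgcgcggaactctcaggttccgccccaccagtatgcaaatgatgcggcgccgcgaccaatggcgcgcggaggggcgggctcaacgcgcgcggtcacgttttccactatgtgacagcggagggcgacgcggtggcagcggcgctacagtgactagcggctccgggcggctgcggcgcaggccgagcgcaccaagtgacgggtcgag
On either strand 0.893% of all promoters hold this D-box. Of 149 promoter entries of genes 2-fold lower 4 (2.68%) hold it, against 0.52% of the 8267 entries of kept genes. The 4 were those of Per2, Cyp2b2 (-1.16), Hyls1 (-1.51) and Tuft1 (-1.01). The E-box CACGTG was searched in the same way. It was in 16 of the 149 entries (10.7%), against 9.82% of the entries of kept genes, so its share was near that of all.

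Matrix and stellate cell genes were displaced upward by a small amount. Of 32 kept genes 3 were at least 2-fold higher, against 2.47% of all kept genes. None was lower, 30 were above 0 and the median was 0.46. Acta2 (81633), the smooth muscle actin of activated stellate cells, had 89 reads in the miR-27b liver, against 22 in the saline, 51.2 in the siRNC and 12 in the naive liver, a difference of 2.14 (1.45 to 2.88). Tagln, another contractile protein, was at 1.03, and at 0.84 with 5 reads added. Thbs1, a matrix protein that activates TGF beta, had 9 reads in the miR-27b, 28.5 in the siRNC and 6 in the naive liver. In the saline liver it was at the floor of 1 normalized read, listed as 0 reads. The miR-27b liver was at least 3.26-fold higher with 3 reads assumed for the saline library. With Thbs1 at that bound the list median was also 0.46. The collagen genes Col3a1 (0.53), Col1a2 (0.38) and Col1a1 (0.25) were short of 2-fold, as were the stellate markers Lrat (0.81, interval 0.48 to 1.14), Pdgfrb (0.67) and Reln (0.26). Thbs2 had 87.2 reads in the miR-27b liver, against 32 in the saline, 71 in the siRNC and 29 in the naive liver, a difference of 1.57 (0.96 to 2.20). Pcolce, the enhancer of procollagen cleavage, had 672.7 reads in the miR-27b liver, against 255 in the saline, 231.3 in the siRNC and 35 in the naive liver, a difference of 1.52 (1.31 to 1.73).

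Of 10 kept genes of antigen presentation by MHC class II, 4 were at least 2-fold higher, against 2.47% of all kept genes. None was 2-fold lower, 7 were above 0 and the median was 0.81. Ciita, the master regulator of these genes, had 34 reads in the miR-27b liver, against 14 in the saline, 21 in the siRNC and 8 in the naive liver, a difference of 1.40 (0.46 to 2.41). The class II chain RT1-Db1 was at 1.24, the invariant chain Cd74 at 1.23 and RT1-Ba at 1.14. With 5 reads added, RT1-Db1 was at 0.97 and Cd74 at 0.99. The RT1 genes are a family of similar sequences between which reads may be shared. Macrophage markers were less displaced, with 18 of 21 above 0, a median of 0.19 and none past 2-fold, among them Cd68 at 0.58 and the Kupffer cell lectin Clec4f at 0.19. Of 13 markers of T and NK cells 12 had a value, mostly of a few reads, and 9 of the 12 were above 0. Their 8 members with recovered reads summed to 21.2 reads in the miR-27b liver, against 3.5 in the saline, 16.3 in the siRNC and 9.5 in the naive liver. B cells carry class II as well. Of the 6 markers of B and plasma cells with a value 1 was above 0, and the 5 under the filter summed to 1 read in the miR-27b liver, against 7.8 in the saline, 3.8 in the siRNC and 3 in the naive liver, a log2 ratio of -2.84 whose interval included 0 (-8.35 to 0.02). The part of these cells in the class II values was not tested. Endothelial markers had 13 of 18 above 0, a median of 0.29 and none past 2-fold. Of 18 interferon response genes 1 was higher, Irf1 (1.13), which was 0.87 with 5 reads added.

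**Figure D3:**
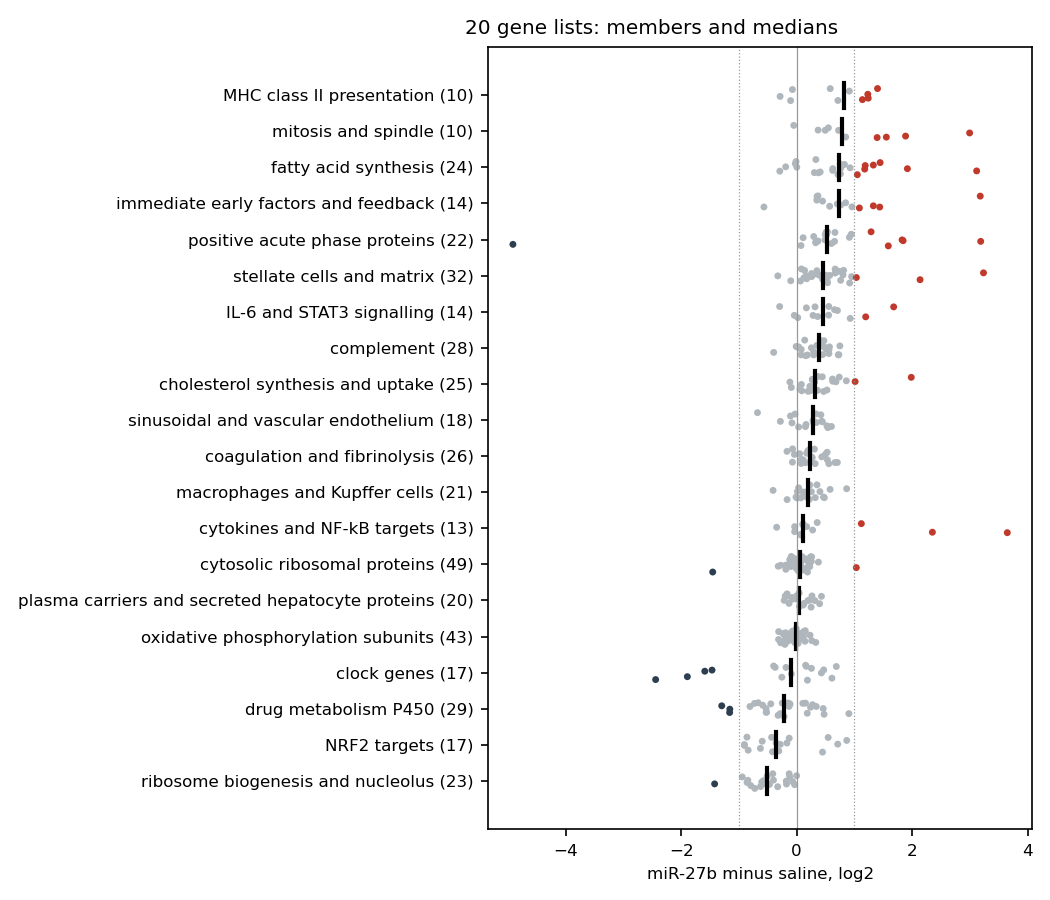
Log2 difference, miR-27b minus saline (x axis), of the kept members of 20 gene lists (points, red at least 2-fold higher, dark blue at least 2-fold lower, grey between; black bars, medians; in brackets, kept members). Lists of class II, mitosis, fatty acid synthesis and immediate early genes have medians from 0.73 to 0.81, and ribosome biogenesis has the lowest, -0.51.

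Markers of the donor cell type lay on both sides of 0. Of 18 markers of mesenchymal stromal cells and fat, 12 had a value and 10 passed the level filter. Of these 10, 2 were at least 2-fold higher, against 2.47% of all kept genes, 7 were above 0, and the median was 0.16. Mcam (0.49), Nt5e (0.24) and Car3 (-0.08) were in the highest level class. The fatty acid carrier Fabp4, also made by endothelial cells, was at 1.53 in the miR-27b, 0.00 in the saline, 0.40 in the siRNC and -2.97 in the naive liver. The hyaluronan receptor Cd44, also made by leukocytes, had 38 reads in the miR-27b liver and 19.6 in the saline liver, a difference of 1.08 (0.23 to 1.91). Thy1, a defining marker of these cells, had 1 read in the miR-27b liver, 5 in the saline, 5 in the siRNC and 0 in the naive liver, and the fat cell markers Adipoq and Plin1 were among the 6 listed at 0 in all 4, with unknown levels.

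Genes reported as targets of miR-27b showed no common direction. Of 14 kept genes 9 were above 0, none was higher and 1 lower, and the median was 0.24. The lower one was Spry2, an inhibitor of growth factor signalling, at -0.66 in the miR-27b, 0.44 in the saline, 0.00 in the siRNC and -0.96 in the naive liver, a difference of -1.10 (-0.82 with 5 reads added). Pparg, the adipogenic nuclear receptor, was under the level filter, with 2 reads in the miR-27b liver, against 12 in the saline, 11 in the siRNC and 6 in the naive liver, a difference of -2.46 (-5.67 to -0.30). Lpl was at 0.84, Abca1 at 0.62, Foxo1 at 0.41 and Rxra at 0.05. The list overlaps the lipid lists, for example in Gpam.

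P450 genes and NRF2 targets lay mostly below 0. Of 29 kept P450 and related genes none was higher and 9 were above 0, with a median of -0.22. At least 2-fold lower were 3, against 2.09% of all kept genes. These were Cyp2c24 (-1.30), Cyp2b2 (-1.16) and a row of Cyp2j4 (-1.16), members of families in which reads may be shared. Of 17 kept targets of the oxidant sensor NRF2, 4 were above 0, none was past 2-fold and the median was -0.36, with thioredoxin reductase Txnrd1 at -0.90 and the glutathione synthesis gene Gclm at -0.84. In ER stress and amino acid response 2 of 24 were lower, against 2.09% of all kept genes. They were Xbp1 (-1.09) and Trib3 (-1.08), and the median of the list was 0.17. Among p53 targets and GADD45 genes, Gadd45g was at -2.15 in the miR-27b, 0.00 in the saline, -1.82 in the siRNC and 0.17 in the naive liver.

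The 12 highest and 12 lowest differences among 3105 genes of higher level include Cxcl1, Lcn2, Il1rn, Insig1, Fasn, Cyp7a1 and Ccnd1. The lowest was Inmt, a methyltransferase, with 16 reads in the miR-27b liver, against 65 in the saline, 106 in the siRNC and 485.7 in the naive liver, a difference of -1.90 (-2.79 to -1.10). Cish (83681), a feedback inhibitor of STAT5 signalling, had 20 reads in the miR-27b liver, against 77 in the saline, 140.4 in the siRNC and 6 in the naive liver, a difference of -1.82 (-2.61 to -1.10). Cryl1 had 79 reads in the miR-27b liver, against 269.8 in the saline, 152 in the siRNC and 147 in the naive liver, a difference of -1.65 (-2.03 to -1.29), with the miR-27b liver at the bottom and the saline liver at the top of the 4. The aldo-keto reductase Akr7a3 (-1.70), the carbonic anhydrase Ca1 (-1.62) and the peroxisomal lyase Hacl1 (-1.46) were also in this set.

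**Figure D4:**
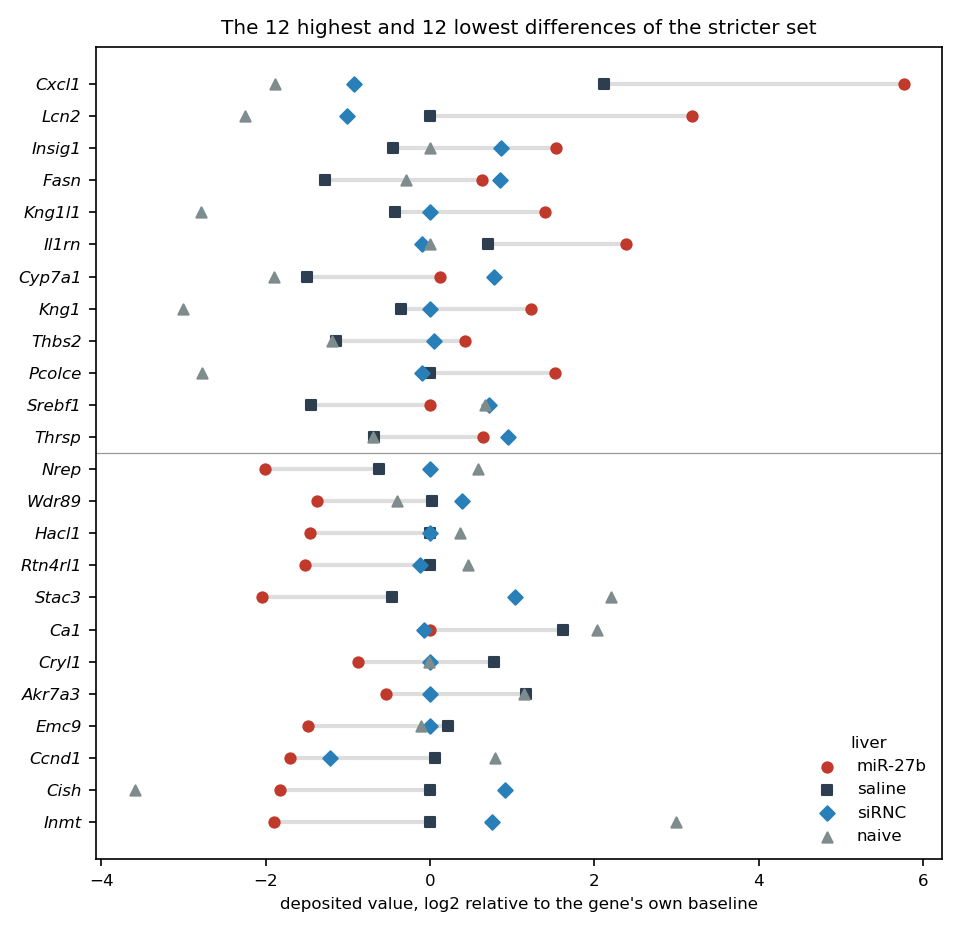
Deposited values (x axis, log2 relative to the gene's own baseline) in the 4 livers for the 12 genes highest and the 12 lowest in the miR-27b against the saline liver, among 3105 genes of higher level. Grey bars join the miR-27b and saline livers, the longest of them for Cxcl1 at 3.65.

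**Figure D5:**
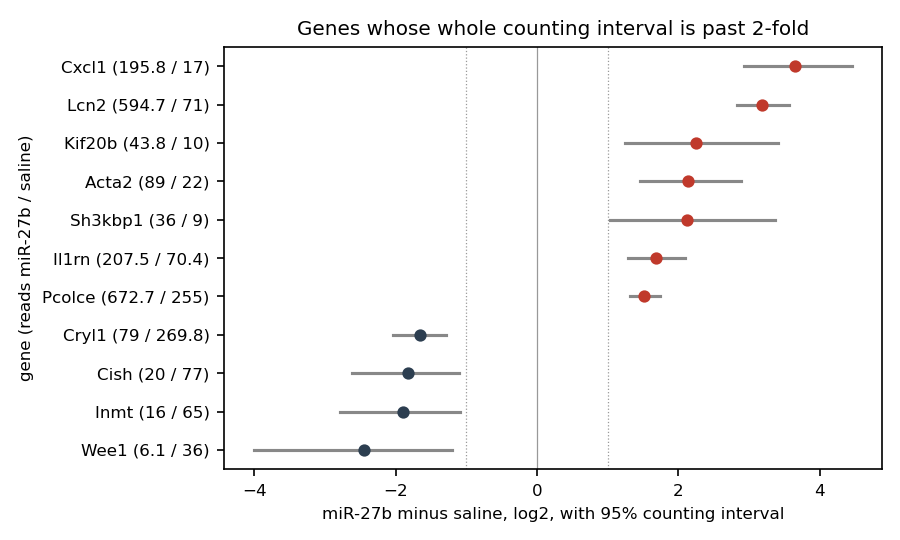
Log2 difference, miR-27b minus saline (x axis), with 95% counting interval (bars), for 11 of 12 genes with recovered reads and a whole interval past 2-fold. Thbs1, at the floor in the saline liver and listed with 0 reads there, is not drawn. Reads in the miR-27b and saline livers stand in brackets, and Cxcl1 and Lcn2 lie furthest from 0.

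The remaining lists held few genes past 2-fold. Of 20 kept genes of TGF beta and SMAD signalling, 1 was higher, the activin subunit Inhba (1.36, and 0.87 with 5 reads added), and 1 lower, Bmp4 (-1.07, and -0.75 with 5 reads added), with a median of 0.03. Of 21 genes of glucose handling 1 was lower, the serine dehydratase Sds (-1.12), with a median of 0.05. Of 19 genes of mitochondrial biogenesis Ppargc1a alone was past 2-fold, with a median of 0.04. None of 11 urea cycle genes (median -0.16) and none of 11 heat shock genes (median -0.07) was past it. Of 15 pericentral genes Cyp7a1 was higher and the ammonium transporter Rhbg lower (-1.07, and -0.78 with 5 reads added), with a median of -0.09. Of 16 genes of the p53 and GADD45 list Btg2 and Tp53inp1 (1.07) were higher and Gadd45g lower, with a median of 0.12. Of 9 kept markers of cholangiocytes and progenitors 1 was lower, the proteoglycan Gpc3 (-1.58), with a median of 0.07. Of 49 cytosolic ribosomal protein genes 1 was higher, Rpl13 (1.03), and 1 lower, Rps2 (-1.45), both with many pseudogene copies, and the median was 0.05. Of 10 erythroid genes Tfrc was the 1 past 2-fold, with a median of -0.14. At any level 4 of 14 erythroid genes were at least 2-fold higher, against 828 of all 12874 genes. The 4 erythroid genes under the filter summed to 20.3 reads in the miR-27b liver. The saline liver had 6.5, the siRNC liver 18 and the naive liver 1. The log2 ratio of miR-27b to saline was 1.76 (0.49 to 3.46). The part of erythroid cells in the Tfrc value was not tested. The 1 kept marker of B cells, Cd22, was at 0.21. The growth factor list had a median of 0.19, the interferon list one of 0.23, and the 3 kept T and NK cell genes one of 0.27, with the kinase Lck past 2-fold at 1.26.

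The position of the other 2 livers was counted for the genes called in each direction. Of the 242 genes called higher, the siRNC liver was nearer the miR-27b liver in 123 and nearer the saline liver in 119, so it divided about evenly, as it did over all kept genes (48.3% nearer the miR-27b liver). The miR-27b liver was the highest of the 4 in 170 of the 242 (70.2%), and the saline liver the lowest in 131 (54.1%). Of the 205 called lower, the siRNC liver was nearer the saline liver in 152 (74.1%), against 51.7% of all kept genes. The miR-27b liver was the lowest of the 4 in 178 (86.8%) and the saline liver the highest in 100 (48.8%). Over all kept genes with a difference other than 0, the miR-27b liver lay outside the other 3 on the side of its difference in 51.1% and the saline liver on the opposite side in 43.2%, so the 48.8% is near the share of all genes. Genes in which the miR-27b liver was at least 2-fold beyond all 3 others numbered 58 among the higher and 63 among the lower, and those in which the saline liver was so on the opposite side numbered 30 and 9; over all kept genes these were 1.2% for the miR-27b and 0.4% for the saline liver. These positions were read on the libraries that chose the genes, so they describe the calls and test nothing.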

How the data were processed

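The authors deposited 1 table of normalized values, which are log2 values relative to a baseline of each gene, floored at 1 normalized read; that scale was read from the values, and the header of the table names a RefSeq gene list. DESeq, with no version, and the rat build rn5 are named in the submitters' processing notes, and no source used here names the aligner or counter. A linear scale with a pseudocount had been planned, so the unit found was handled as log2 and no pseudocount was added. Samples were grouped by source label, 1 library a group. The gene lists, 42 of them with 884 genes, and the genes named were chosen with earlier results of these data known.

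The worth of 1 read in each library was taken from genes seen in 1 library alone. Reads were then recovered where a search in steps of 1/101 of a read and the binary rounding of the stored values gave 1 solution at a posterior of at least 0.9. This held for 3726 genes (28.9% of 12874), and among kept genes 65.9% of such values came out whole to within 0.0001. In data simulated for 1195 genes with counting error alone, 95.0% of recovered genes had the true reads. Of genes simulated at a level of at least 16 and a log2 difference of 1.5, 97.1% came out past 2-fold. The share of unchanged genes past 2-fold was not taken. The filter kept 1496 genes whose recovered reads averaged 10 or more, and 8299 in an estimated class of at least 16 or 256 normalized reads. The stricter set of 3105 needed a mean of 50 or the class of 256, of which an estimated 68.3% truly reach 256. Total reads per library do not follow from differences within genes and were not used here. Counting alone gives a log2 difference an SD of 0.51 where both libraries have 16 reads, and of 0.13 where both have 256. Intervals are 95% Clopper-Pearson limits on rounded reads (scipy 1.17.1, Python 3.11.15).

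Named genes are the 12 highest and 12 lowest of the stricter set, 9 fixed genes, and up to 5 kept members furthest on each side of 0 in every list, together with the members quoted beside them; Kif20b, low-level markers and the genes of the closing section were chosen after their values were seen. Values of some list members that the rule names are not reported here. Promoters and microRNAs were matched by gene ID or name to RefSeq tables, which gave 8267 promoter entries for the 9795 kept genes. A gene with several entries is counted once for each of them.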

Additional observations from a re-analysis of the deposited data

How the results depend on the processing

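No paired analysis was possible because each group has 1 library. Against 242 genes higher and 205 lower, the stricter level filter left 35 and 27 of 3105 genes, no filter gave 828 and 483 of 12874, a pseudocount of 5 gave 121 and 95, a threshold of 1.5-fold gave 814 and 739, and one of 3-fold gave 48 and 49. Subtracting the median difference, which was 0.00, left 242 and 205. These shifts follow from the number of genes tested, the threshold or the shrinkage of low levels. With the pseudocount 71 of 345 named genes moved by more than their counting error (0.13 where reads were not recovered). A pseudocount added to both levels cannot reverse a difference, so it does not check directions. Of 42 list medians, 4 moved by at least 0.25 without the filter, among them neutrophils (2.10 over 8 genes) and mitosis (1.22 over 22), and 4 under the stricter filter, which left 2 to 4 genes in each. Leaving out a replicate was not possible. Depth limits genes under 16 reads most, and no interval here covers the difference between animals.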

Other observations

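Socs2, Onecut1 and Bcl6 are outside the lists and were picked for their differences, so they stand for no wider group of genes. Socs2, a STAT5-induced inhibitor like Cish, was at -1.57 in the miR-27b, 0.18 in the saline, 0.00 in the siRNC and -1.19 in the naive liver, a difference of -1.75. Onecut1, a hepatic transcription factor known to respond to growth hormone, was at -2.83 in the miR-27b, 0.00 in the saline, 0.94 in the siRNC and -2.68 in the naive liver. Bcl6, a repressor that growth hormone is known to lower in liver, was at 0.68 in the miR-27b, -1.97 in the saline, 0.00 in the siRNC and 2.70 in the naive liver, a difference of 2.65. For Socs2 and Onecut1, as for Cish, the miR-27b and naive livers were the low pair, and for Bcl6 they were the high pair. Igf1, the main hepatic target of growth hormone, differed by 0.32, and the male-pattern P450 gene Cyp2c11 by -0.53, both short of 2-fold.

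Also chosen after their values were seen, the antimicrobial peptide gene Leap2 was at 1.72 in the miR-27b, -0.54 in the saline, 0.00 in the siRNC and -0.06 in the naive liver, a difference of 2.26. The citrate transporter Slc13a5, which brings citrate into hepatocytes, was at 1.93 in the miR-27b, 0.00 in the saline, 0.08 in the siRNC and -1.17 in the naive liver.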
